A study of Homo sapiens with 15 samples.

Results

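The UHRF1-depleted clone Cl.9 was set beside the DNMT1-depleted bulk populations R1 and R2, because the 3 populations reached close genome-wide methylation levels (mC) at Knockdown. The comparison used 9 of the 15 samples of the series, all 3 stages of each population. All were HCT116 cells, a human colorectal carcinoma line, carrying a doxycycline-inducible short hairpin RNA (shRNA). The shRNA was directed against UHRF1 in Cl.9 and against DNMT1 in R1 and R2. Baseline cells were cultured for 14 days without doxycycline, and Knockdown cells for 14 days with 10 ng/mL. Recovery cells received doxycycline for the same 14 days and then grew without it until day 28. No doxycycline-free library of day 28 was among the samples. Cl.9 was 1 clonally expanded line, picked by the study among its shUHRF1 clones for its deep loss of methylation, whereas R1 and R2 were bulk populations. The shRNA target, the kind of population and the count table therefore cannot be told apart. With 1 population against 2, no test was run, and Cl.9 is described beside R1 and R2.

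DNMT1 is the methyltransferase that copies CpG methylation onto the new strand after replication. UHRF1 recognises hemimethylated DNA and modified histone H3 and recruits DNMT1 to it. In colorectal cancer cells most of the genome lies either in highly methylated domains (HMDs) or in partially methylated domains (PMDs), which are late replicating, gene poor and less methylated. Low-methylated regions (LMRs) often mark distal regulatory elements, and unmethylated regions (UMRs) often mark CpG island promoters. The study also describes UMRs that lie within PMDs and grow after knockdown.

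The samples were measured by whole-genome bisulfite sequencing, in which unmethylated cytosines are converted and read as T, so that the C left at a CpG marks methylation. mC is the percentage of reads at a CpG, or summed over a region, that were methylated. Median coverage per CpG was 20 to 21 reads in the Cl.9 libraries and 12 to 18 in R1 and R2. There were 22863188 CpGs on chromosomes 1 to 22 and X with at least 5 reads in all 9 libraries. At Baseline their mC, summed over reads, was 71.7% in Cl.9, 73.6% in R1 and 73.5% in R2. At Knockdown the levels were 42.4%, 40.1% and 39.2%. At Recovery they were 52.9%, 72.8% and 72.7%. Cl.9 thus regained 35.9% of the mC it had lost, R1 97.4% and R2 97.4%.

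The same pattern was seen in 10 kb windows, of which 273388 passed a minimum of 20 CpGs and of 200 reads per library. The mean change from Baseline to Knockdown (ΔmC) was -29.3 percentage points in Cl.9, -33.6 in R1 and -34.3 in R2. Cl.9 lost less on average, with a difference from the mean of R1 and R2 of 4.66 points. The change from Knockdown to Recovery was 10.6 points in Cl.9, 32.4 in R1 and 33.2 in R2, a difference of -22.2 points. At both steps the distance of Cl.9 from the bulk populations exceeded that between R1 and R2.

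Similar means at Knockdown hid different distributions. The standard deviation of Knockdown mC over windows was 20.0 points in Cl.9, 15.1 in R1 and 14.9 in R2. The lowest 5% of windows lay under 8.68% in Cl.9, 13.5% in R1 and 13.2% in R2, and the highest 5% lay above 68.0%, 58.8% and 57.9%. Cl.9 therefore had both the lowest and the highest tails. Its spread over windows was also wider at Baseline, 25.3 points against 23.7 in both R1 and R2.

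**Figure D1:**
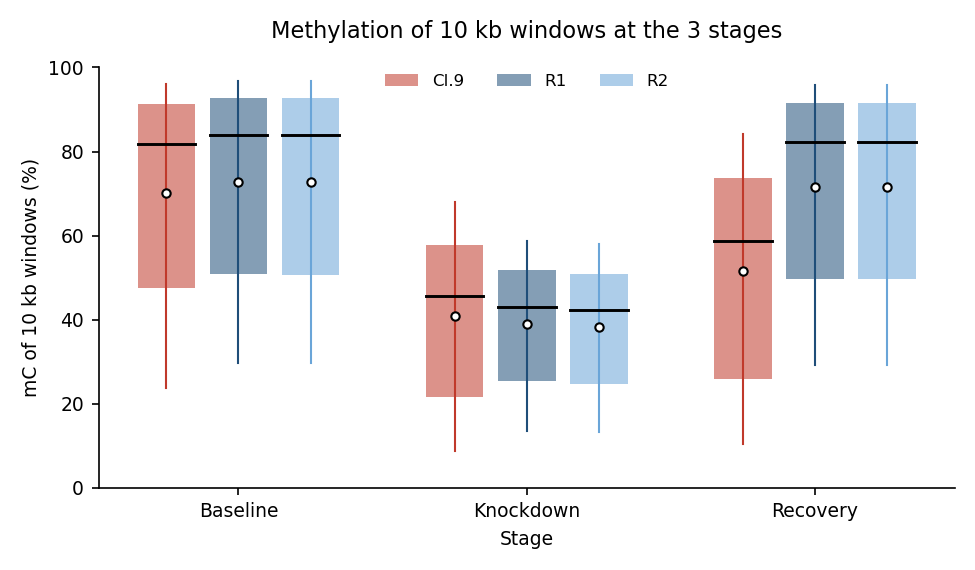
Methylation of 273388 windows of 10 kb (vertical axis, %) at Baseline, Knockdown and Recovery (horizontal axis) in Cl.9 (red), R1 (dark blue) and R2 (light blue). Boxes run from the 25th to the 75th percentile over windows, thin lines from the 5th to the 95th, black bars are medians and white circles means. The medians at Knockdown were 45.5%, 43.0% and 42.2% and those at Recovery 58.8%, 82.2% and 82.3%.

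Which windows kept their methylation differed with the starting level. Where all 3 populations had a Baseline mC of 90 to 100% (77538 windows), Knockdown mC was 62.3% in Cl.9, 54.5% in R1 and 53.6% in R2. Where all 3 started at 20 to 30% (5495 windows), it was 9.13%, 12.3% and 11.9%, but Cl.9 was already lower at Baseline (23.6%, 26.4% and 26.5%) and the changes were -14.5, -14.1 and -14.6 points. Knockdown mC of Cl.9 passed that of R2 between Baseline levels of 50 to 60% (26.9% in Cl.9, 27.9% in R1 and 27.1% in R2) and 60 to 70% (32.6%, 33.2% and 32.4%), and that of R1 between the latter and 70 to 80% (39.3%, 38.5% and 37.7%). Regain in Cl.9 followed the same order. It was 51.7% of the loss in windows that started at 90 to 100%, 29.0% at 70 to 80%, 22.5% at 50 to 60% and 13.7% at 20 to 30%. In R1 and R2 the share regained was 96.3% or more in each of these 4 classes.

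To compare regain from the same starting point, windows were matched. A matched window had a Baseline mC of at least 50% in all 3 populations and differed between Cl.9 and each of R1 and R2 by at most 5 points at Baseline and at Knockdown. There were 43677 such windows, 15.98% of those measured. Their mean Baseline mC was 82.6% in Cl.9, 84.2% in R1 and 84.2% in R2, and their Knockdown mC was 46.0%, 45.2% and 44.6%. Windows matched on Baseline alone, described below, had a Knockdown mC of 54.4% in Cl.9. The match at Knockdown thus kept windows in which Cl.9 had lost more than usual. A window held a median of 1151 to 1781 reads per library, so its mC had a median binomial standard error of 0.830 to 1.25 points. This error covers counting alone, since reads that span several CpGs are not independent. Recovery mC was not used for the match.

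At Recovery the matched windows stood at 59.4% in Cl.9, 82.8% in R1 and 82.9% in R2. The difference between Cl.9 and the mean of the bulk populations was -23.4 points, against -0.0458 points between R1 and R2. The standard deviation of these differences over windows was 5.22 points for Cl.9 and 1.75 points for R1 minus R2. Cl.9 was at least 20 points below both R1 and R2 in 30269 matched windows (69.3%), at least 10 points below both in 43372 (99.3%) and at least 30 points below both in 9.09%. Cl.9 was above R1 or R2 in 0 matched windows, and R1 and R2 were 20 points apart in 0. Cl.9 regained 36.7% of its loss in these windows, R1 96.6% and R2 96.6%. In the same windows Cl.3 and Cl.6, the other shUHRF1 clones, had lost less, with Knockdown mC of 69.8% and 63.9%, and regained 42.8% and 49.3%.

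**Figure D2:**
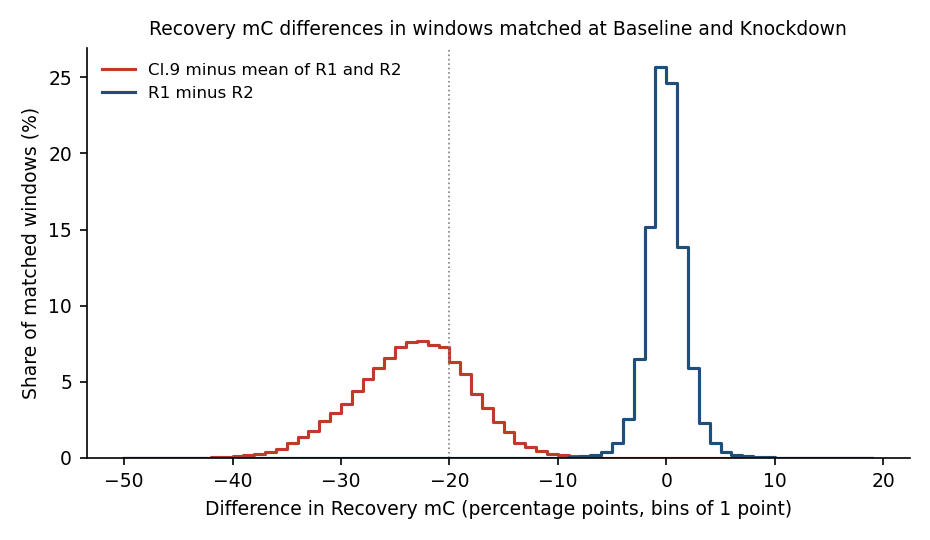
Share of the 43677 matched 10 kb windows (vertical axis, %) by difference in Recovery mC (horizontal axis, percentage points, bins of 1 point), for Cl.9 minus the mean of R1 and R2 (red) and for R1 minus R2 (blue). The dotted line marks -20 points; the red distribution has its median at -23.2 points and the blue one at -0.0574.

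R1 and R2 were close to each other at every stage. Over all 273388 windows, the mean chi-square per window between their counts was 1.70 at Baseline, 2.47 at Knockdown and 1.74 at Recovery. Counting alone gives 1 if all calls are independent, which calls on the same read are not. Between Cl.9 and R1 it was 11.997, 23.9 and 209. R1 and R2 thus differed from each other far less than either differed from Cl.9. Whether they differed by more than counting error cannot be told from these values. They were kept as 2 populations as labelled. The p-values that such a pair could give would measure a narrow spread, which is a further reason that none is given.

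The result did not rest on pairing windows. When each population's windows were binned by its own Baseline and its own Knockdown mC in steps of 10 points, 14 bins held at least 100 windows in all 3 populations. Recovery mC in Cl.9 minus the bulk mean was between -35.8 and -14.8 points over these bins. Binned by Knockdown mC alone, windows at 30 to 40% reached 44.4% in Cl.9, 69.3% in R1 and 70.7% in R2. Windows at 40 to 50% reached 58.8%, 85.4% and 86.4%, and windows at 60 to 70% reached 80.3%, 95.6% and 95.7%. In Cl.9 the windows with the least methylation left gained the least, from 17.7% to 21.9% in the bin of 10 to 20%. The few R1 windows of that bin (245) went from 18.8% to 49.0%. In the bin of 40 to 50%, Cl.3 reached 49.9% and Cl.6 52.8%, so all 3 clones lay below R1 and R2 there. The windows of this bin had started from 59.3% in Cl.3 and 65.6% in Cl.6, but from 81.5% in Cl.9 and 86.9% in R1, so the bin holds different windows in each population.

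**Figure D3:**
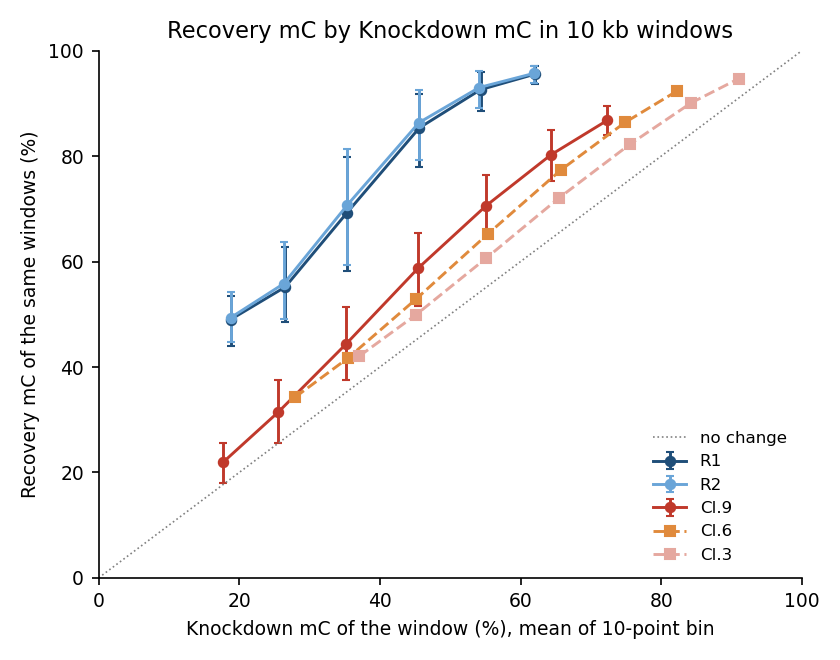
Mean Recovery mC (vertical axis, %) of 10 kb windows grouped by their own Knockdown mC in bins of 10 points (horizontal axis, mean of the bin, %), for windows with Baseline mC of at least 50% and bins of at least 100 windows. Bars show the 10th to 90th percentile over windows for Cl.9, R1 and R2; Cl.3 and Cl.6 are dashed, and the dotted line marks no change. At 40 to 50% the means were 58.8% in Cl.9 and 85.4% in R1.

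The difference at Recovery was spread over the genome. By chromosome, Cl.9 minus the bulk mean over matched windows ranged from -25.9 points on chromosome 20 to -21.8 on chromosome 13, over 23 chromosomes. By the number of CpGs per window, it was -23.2 points in windows of 20 to 49 CpGs and -23.3 in windows of 200 to 399. Windows that overlapped a protein-coding gene had -23.0 points and the others -23.8. The 30269 windows that were lower in Cl.9 by at least 20 points lay in 14707 runs of adjacent windows, with a median run of 1 window. In the 5 runs with the most such windows, 1 window may be missing between neighbours. They were 270 to 490 kb long and were chosen for their length. The longest (hg38 chr1:47440001-47930000, 40 such windows) overlaps, in whole or in part, FOXD2, a forkhead transcription factor gene, and TRABD2B, which encodes a metalloprotease that inhibits Wnt signalling. Its mC went from 79.8% to 38.6% and 50.5% in Cl.9. In R1 it went from 81.6% to 39.3% and 80.2%, and in R2 from 81.5% to 38.3% and 80.2%. The second (chr6:33790001-34140000) overlaps MLN, the gene of the gut hormone motilin, and GRM4, a glutamate receptor gene. This run ended at 55.9% in Cl.9, 82.3% in R1 and 82.4% in R2. The run at chr11:125220001-125550000 overlaps PKNOX2, a homeobox gene, and FEZ1, with 52.3%, 79.5% and 79.6%. The runs at chr7:156210001-156540000 and chr16:86760001-87030000 overlap 0 protein-coding genes and ended at 49.4% and 50.1% in Cl.9, against 75.2% and 75.8% in R1 and 75.3% and 75.9% in R2.

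Windows matched on Baseline alone (153473) show where the loss itself differed. Their Knockdown mC was 54.4% in Cl.9, 49.0% in R1 and 48.1% in R2. Cl.9 was at least 20 points above both R1 and R2 at Knockdown in 149 of these windows (0.0971%) and at least 20 points below both in 2. The share above depended on the settings, with 0.252% against R2 alone, 0.163% against R1 alone, 0.330% in 5 kb windows, 0.00285% in 50 kb windows and 14.3% at a limit of 10 points. R1 and R2 were 20 points apart in 0. The 149 windows had a median of 133 CpGs, against 89 over all windows matched on Baseline, and 14 of them (9.40%, against 5.39%) overlapped a promoter. Their mean mC went from 92.4% to 67.5% and 81.2% in Cl.9, from 92.0% to 45.3% and 90.6% in R1, and from 92.0% to 44.8% and 90.7% in R2. At Recovery Cl.9 was at least 20 points below both in 50414 windows (32.8%). It came within 5 points of both in 193, which stood at 58.0% at Knockdown, against 46.8% in R1 and 45.4% in R2.

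Domains were compared over base pairs that the deposited lists called the same in all 3 populations at Baseline. Shared HMDs held 13031325 of the covered CpGs. Their mC went from 91.4% to 58.1% and 73.7% in Cl.9, from 92.6% to 51.1% and 91.4% in R1, and from 92.6% to 50.1% and 91.4% in R2. Cl.9 lost less in HMDs and then regained 15.5 points, against 40.3 and 41.3, a difference of -25.2 points. At Baseline the UMR lists were long, with 438 Mb in Cl.9, 351 Mb in R1 and 348 Mb in R2. Shared PMDs, leaving out LMRs and these UMRs, held 2008852 CpGs. Their mC went from 70.1% to 32.7% and 39.7% in Cl.9, from 73.4% to 37.1% and 71.9% in R1, and from 73.4% to 36.4% and 72.0% in R2. In PMDs Cl.9 thus began lower and went lower than the bulk populations, with similar losses (-37.4 points, against -36.2 in R1 and -37.0 in R2). Cl.9 then regained 7.02 points, against 34.8 and 35.6, a difference of -28.1 points. The share of the loss regained by Cl.9 was 46.8% in HMDs and 18.8% in PMDs, whereas R1 and R2 regained 95.9% to 97.2% in both. Cl.3 and Cl.6 also regained a larger share in HMDs (49.7% and 56.7%) than in PMDs (34.0% and 36.9%).

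Single domains behaved alike. Of 7910 shared HMDs of at least 50 kb, Cl.9 was above both R1 and R2 at Knockdown in 7638 and below both at Recovery in 7910, by at least 20 points in 1703. Of 142 shared PMDs of that length, Cl.9 was below both at Knockdown in 119 and below both at Recovery in 142, by at least 20 points in 137. Cl.9 already lay below both at Baseline in 7547 of the HMDs and 108 of the PMDs, though in none by 20 points (0 of each). The domains of 1 library share their source and are not replicates.

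Windows matched at Knockdown keep this order. Where at least 80% of CpGs lay in shared HMDs (26780 matched windows), Knockdown mC was 51.0%, 49.5% and 48.9% in Cl.9, R1 and R2 and Recovery mC 66.5%, 88.5% and 88.5%. Where at least 80% lay in shared PMDs (2818 windows), Knockdown mC was 34.7%, 35.8% and 35.3% and Recovery mC 42.8%, 69.9% and 70.0%. The difference was -22.0 points in the former and -27.1 in the latter.

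The domain lists, made for each library from its own reads, moved in the same way. An HMD call requires a high average mC, so the calls follow in part from the levels above and are not separate evidence. Of the CpGs of matched windows that lay in shared Baseline HMDs (2339241), the Recovery lists put 7.79% in an HMD in Cl.9, 92.9% in R1 and 93.1% in R2. In Cl.9, 71.7% of them were called PMD at Recovery. Over the CpGs of all shared HMDs, 37.2% were back in an HMD in Cl.9, 97.1% in R1 and 96.7% in R2. Total HMD length at Recovery was 510 Mb in Cl.9, 1470 Mb in R1 and 1469 Mb in R2, against 1635 Mb, 1517 Mb and 1533 Mb at Baseline. PMD length differed between the populations from the start, with 589 Mb in Cl.9, 1281 Mb in R1 and 1260 Mb in R2, so these lengths depend on the calls of each library. The lists held 0 HMDs on chromosome X in any of the 9 libraries.

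Solitary CpGs are known to lose methylation more readily than clustered ones when maintenance is impaired. CpG density was examined inside the matched windows, in which 2198347 covered CpGs were of low density (nearest CpG at least 20 bp away) and 1527023 of high density. At Knockdown low-density CpGs stood at 38.4% in Cl.9, 39.9% in R1 and 39.2% in R2. High-density CpGs stood at 56.1%, 51.2% and 50.3%. The gap between the classes, low minus high, was -17.8 points in Cl.9, -11.3 in R1 and -11.1 in R2. At Baseline it had been -6.31, -5.53 and -5.48. Windows of equal mean thus differed inside, with a wider gap in Cl.9 by -6.59 points than in the bulk mean.

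At Recovery the gap returned close to its Baseline value in the bulk populations and not in Cl.9, with -16.2 points in Cl.9, -6.30 in R1 and -6.13 in R2. Low-density CpGs reached 52.1% in Cl.9 and 79.6% in both R1 and R2. High-density CpGs reached 68.3%, 85.9% and 85.7%. A wider gap than at Baseline was also seen at Recovery in the other shUHRF1 clones, over shared HMDs. There, low- and high-density CpGs of Cl.3 went from 91.6% and 95.4% at Baseline to 83.2% and 91.7% at Recovery. Those of Cl.6 went from 92.4% and 95.9% to 81.5% and 90.7%. Regain was partial in Cl.9 at every spacing. In Cl.9, CpGs with a neighbour 2 to 5 bp away stood at 62.4% at Knockdown and reached 73.1%. Those 60 to 99 bp from the nearest CpG stood at 35.2% and reached 48.7%. In R1 the same classes stood at 55.4% and 37.7% and reached 85.6% and 76.9%.

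**Figure D4:**
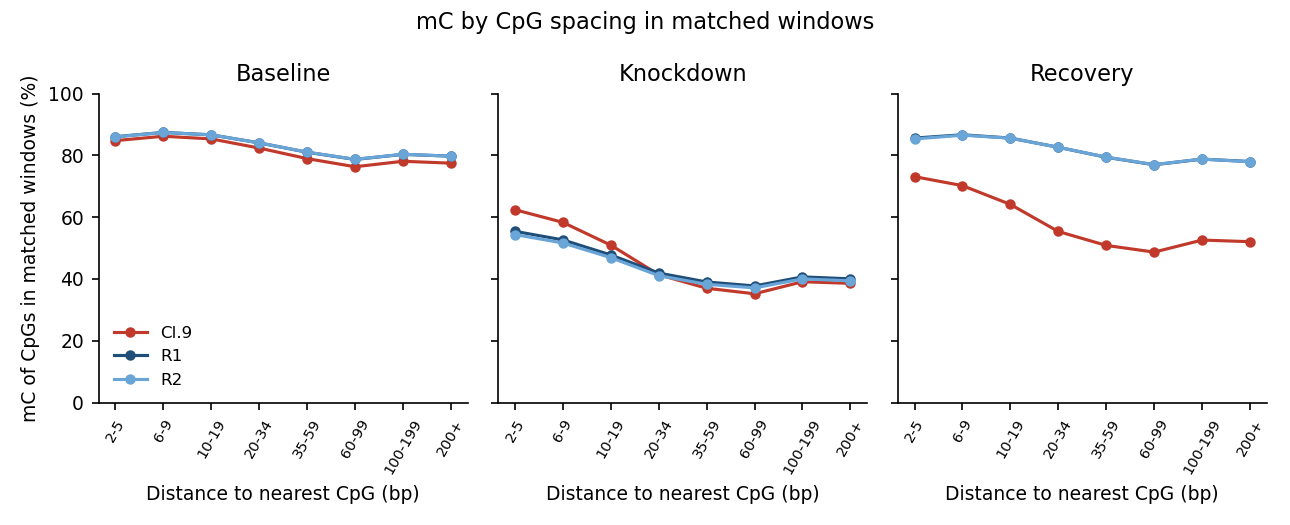
mC (vertical axis, %) of CpGs in matched windows by distance to the nearest CpG (horizontal axis, bp) at Baseline, Knockdown and Recovery in Cl.9 (red), R1 (dark blue) and R2 (light blue, often over R1). At Knockdown the lines cross, with Cl.9 at 62.4% and R1 at 55.4% for neighbours within 2 to 5 bp and 35.2% and 37.7% at 60 to 99 bp.

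The bases next to the CpG gave a second ordering. It was examined among CpGs of matched windows with no other CpG within 35 bp. Sites flanked by G and C (GCGC, 48240 CpGs) stood at 57.5% at Knockdown in Cl.9, 52.0% in R1 and 51.0% in R2. Sites flanked by A and T (ACGT, 165454 CpGs) stood at 25.8%, 32.2% and 31.5%. At Recovery GCGC sites stood at 72.7%, 88.8% and 88.7% and ACGT sites at 39.5%, 70.8% and 70.7%. TCGA sites (98177) had the lowest level in Cl.9 at Recovery, 36.1%, against 67.7% in R1 and 67.8% in R2, and regained 23.6% of their loss in Cl.9 against 48.5% at GCGC sites. The flanks had this order at Baseline too, with 88.8% at GCGC and 66.1% at TCGA sites in Cl.9.

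Single CpGs were compared at equal depth by the expected outcome of drawing 10 reads without replacement, over 2621726 CpGs of matched windows with 10 to 100 reads in all 9 libraries. At Knockdown 28.9% of CpGs in Cl.9 had 0 to 2 methylated reads, against 22.9% in R1 and 23.7% in R2, and 18.6% had 8 to 10, against 10.2% and 9.63%. Intermediate CpGs made up 52.5%, 66.9% and 66.7%. Cl.9 thus had more CpGs at either end although the window means were matched. At Recovery 38.9% of CpGs in Cl.9 had 8 to 10 methylated reads, against 76.8% in R1 and 76.9% in R2, and 19.9% still had 0 to 2, against 6.96% and 6.93%. Whether clonality or the shRNA target goes with this difference cannot be told apart.

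Promoters were taken from 1000 bp upstream to 100 bp downstream of the outermost annotated start of each protein-coding gene, which need not be the start used in HCT116. Of 19360 genes, 16538 had at least 5 CpGs and 100 reads in each library, and 6013 of these had a Baseline mC of at least 50% in all 3 populations. In the latter, mean mC went from 83.1% to 49.3% and 61.2% in Cl.9, from 84.6% to 43.7% and 83.1% in R1, and from 84.5% to 42.8% and 83.1% in R2. At Recovery Cl.9 was at least 20 points below both in 3012 of them (50.1%) and at least 20 points above both in 1. This was DNAH12, an axonemal dynein gene, named after its values were seen, which stood at 91.7%, 54.6% and 74.2% in Cl.9 but already started at 53.2% in R1 and 59.5% in R2, which ended at 49.9% and 51%. Promoters with under 20% at Baseline in all 3 (5881) stayed low at all stages, at 6.12%, 2.85% and 3.59% in Cl.9 and 5.72%, 2.38% and 5.605% in R1.

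Matched promoters were those within 10 points at Baseline and Knockdown, a wider limit than for windows because a promoter holds fewer reads (medians of 238 to 386 per library). There were 2602, with a Knockdown mC of 45.6% in Cl.9, 44.4% in R1 and 43.7% in R2. At Recovery they stood at 58.5%, 82.8% and 83.0%, a difference of -24.4 points. Cl.9 was below both R1 and R2 in 2598, between them in 4, and at least 20 points below both in 1681 (64.6%). R1 and R2 were 20 points apart in 1.

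Of the 10 matched promoters with the largest shortfall in Cl.9, picked by value, 9 are given here as a description. Over all matched promoters Cl.9 regained 12.9 points. In each of the 9 it regained less, which the pick by low Recovery mC favours. TECR, which encodes a reductase of very-long-chain fatty acid synthesis, went from 78.7% to 16.9% and 23.9% in Cl.9. It went from 85.5% to 23.4% and 80.7% in R1 and from 83.0% to 19.9% and 78.6% in R2. The 95% Wilson interval for Cl.9 at Recovery was 21.2% to 26.9%, which covers counting error only. MICOS10, a subunit of the complex that shapes mitochondrial cristae, went from 83.8% to 17.4% and 26.6% in Cl.9 and ended at 79.9% in R1 and 82.8% in R2. ABCB9, a lysosomal peptide transporter, went from 87.5% to 22.9% and 32.7% in Cl.9 and ended at 85.0% and 84.4%.

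In DTX1 and KRTAP5-2 Recovery mC in Cl.9 was no higher than Knockdown mC. DTX1, an E3 ligase of the Notch pathway, stood at 89.4%, 41.4% and 39.5% in Cl.9 and at 89.5% and 91.8% at Recovery in R1 and R2. KRTAP5-2, a keratin-associated protein gene with close paralogs, stood at 70.4%, 25.0% and 23.8% in Cl.9 and at 77.7% and 75.3% at Recovery in the bulk populations. OR10H4, an olfactory receptor gene, ended at 33.5% in Cl.9 against 88.3% and 89.2%. CFAP126, a cilium gene, ended at 30.9% against 85.2% and 82.7%. DNAJC7, a co-chaperone, ended at 40.4% against 91.1% and 93.4%, and DNAI1, an axonemal dynein chain, at 40.1% against 90.8% and 95.9%. At Recovery, the value they were picked by, Cl.9 lay below both bulk values in all 9.

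The 5 matched promoters at the other end of the ranking were those where Cl.9 lay closest to the nearer of R1 and R2, a rule that favours promoters in which R1 and R2 themselves lie apart. DLX5, a homeobox gene, stood at 63.2%, 45.9% and 53.4% in Cl.9, at 56.4%, 39.96% and 52.8% in R1, and at 60.4%, 41.3% and 57.7% in R2. GRB14, an adaptor of the insulin receptor, reached 51.0% in Cl.9, 58.3% in R1 and 46.8% in R2. SLC22A18, a transporter gene of an imprinted cluster, reached 47.9%, 63.3% and 47.3%, and ABHD17A, a depalmitoylase gene, reached 54.1%, 53.5% and 72.4%. GSS, the glutathione synthetase gene, reached 40.8%, 54.5% and 41.6%. Cl.9 lay between the bulk values in 4 of these promoters and below both in GSS.

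At Knockdown the promoters split mainly one way. Of 5138 promoters matched on Baseline within 10 points, 257 (5.00%) were at least 20 points higher in Cl.9 than in both R1 and R2, and 1 (0.0195%) was at least 20 points lower. R1 and R2 were 20 points apart in 8. The share that was higher rose with the number of CpGs, from 1.38% of promoters with 5 to 9 CpGs (652) to 7.25% with 20 to 39 (1903) and 12.1% with 40 to 79 (165). The mean of the 257 went from 91.2% to 67.6% and 77.6% in Cl.9, from 90.6% to 41.2% and 88.8% in R1, and from 90.4% to 40.4% and 88.8% in R2. Cl.9 was below both bulk populations at Recovery in 246 of them, above both in 5 and within 5 points of both in 26. Being below both was also usual among matched promoters (2598 of 2602). Cl.9 was at least 20 points below both in 23 of the 257. Over all promoters with a Baseline mC of at least 50%, this held for 3012 of 6013 (50.1%). Most of the 257 thus ended lower in Cl.9, but by under 20 points.

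Among promoters matched on Baseline, the 6 furthest above the nearer of R1 and R2 at Knockdown were FAM174B, CLUH, TUBB6, TMEM263, MTARC1 and ARHGAP32. FAM174B stood at 93.4%, 77.7% and 82.0% in Cl.9, at 87.4%, 29.0% and 82.8% in R1, and at 87.5%, 27.3% and 82.4% in R2. Its 3 populations ended at nearly the same level from very different Knockdown levels. CLUH, which binds mRNAs of mitochondrial proteins, had 67.4% at Knockdown in Cl.9 against 20.5% and 22.7%, and ended at 72.5% against 92.0% and 84.4%. TUBB6, a beta-tubulin gene, had 66.9% against 26.0% and 24.1%, TMEM263 70.3% against 31.6% and 27.2%, and MTARC1, a mitochondrial reductase gene, 75.6% against 36.6% and 37.1%. ARHGAP32, a GTPase-activating protein gene, had 69.6% against 30.6% and 31.4% and ended at 70.9% against 89.3% and 88.3%.

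Of the promoters matched on Baseline, the 6 furthest below the nearer of R1 and R2 at Knockdown held 6 to 23 CpGs. TNFSF15 was the 1 that passed the limit of 20 points. TNFSF15, a cytokine gene of the tumour necrosis factor family, stood at 75.7%, 10.8% and 24.1% in Cl.9, at 84.3%, 31% and 74.4% in R1, and at 79.1%, 30.9% and 76.5% in R2. PSG11, a pregnancy-specific glycoprotein gene, had 14.1% at Knockdown against 39.6% and 31.9%, and ended at 24.4% against 78.8% and 79.0%. ACSM4, an acyl-CoA synthetase gene, ended at 42.2% against 92.9% and 93.0%. KIR3DL3, a natural killer receptor gene, had 30.8% at Knockdown against 51.7% and 48.6%. MCF2, a nucleotide exchange factor gene, had 35.1% against 57.4% and 52.5%, and GIMAP7, an immune GTPase gene, 22.8% against 44.8% and 39.6%. Part of these gaps was present at Baseline. GIMAP7 began at 64.2% against 73.9% and 71.6%, and ACSM4 at 88.1% against 94.4% and 96.5%. PSG11 began at 71.9% against 78.1% and 74.9%, and KIR3DL3 at 73.3% against 76.7% and 77.9%. MCF2 began higher, at 88.9% against 86.1% and 83.2%. PSG11 and KIR3DL3 each belong to a family of similar genes, so reads may be shared within each family, which was not tested.

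**Figure D5:**
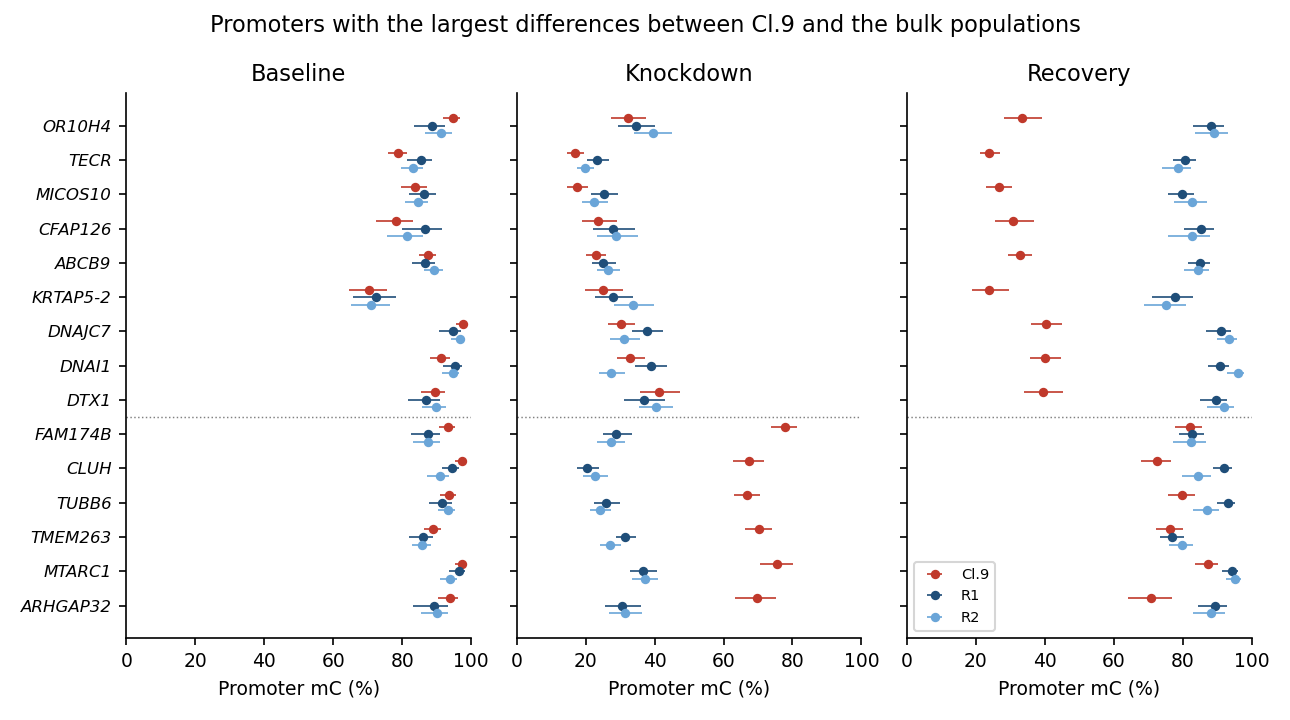
Promoter mC (horizontal axes, %) at the 3 stages in Cl.9 (red), R1 (dark blue) and R2 (light blue). Above the dotted line are 9 of the 10 matched promoters with the largest shortfall in Cl.9 at Recovery. Below it are the 6 promoters, of those matched on Baseline, that lay furthest above R1 and R2 at Knockdown. Bars are 95% Wilson intervals of the reads. Both groups were picked by these values; above the line Cl.9 ended at 23.8% to 40.4% at Recovery, below all bulk values.

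To show single sites behind both groups, the CpG nearest to the start on its upstream side with at least 10 reads in all 9 libraries is printed with 30 bases of the hg38 reference, 5′ to 3′ on the strand of the gene, with the CpG in capitals. CpGs in exons were passed over. The first 2 belong to promoters among those furthest below the bulk populations at Recovery and the last 3 to promoters furthest above them at Knockdown. They were chosen, after their values were seen, as sites that follow their promoter.
MICOS10 (chr1:19483873-19483902, plus strand): caactactcaccctCGttcagcagcaacat
ABCB9 (chr12:122981901-122981930, minus strand): caggccttgggaagCGaccttctccctctc
FAM174B (chr15:92810136-92810165, minus strand): tagatccgtggacaCGaaggggaagctgtg
MTARC1 (chr1:220786105-220786134, plus strand): taaaccacgctgttCGgggtatgctaacat
ARHGAP32 (chr11:129280000-129280029, minus strand): tctcctccgcggcgCGgtgacagtgttctg

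The MICOS10 site was methylated in 30 of 32 reads at Baseline, 3 of 25 at Knockdown and 7 of 27 at Recovery in Cl.9, and in 19 of 20 and 16 of 16 reads at Recovery in R1 and R2. The ABCB9 site had 26 of 26, 2 of 21 and 5 of 24 in Cl.9 and 14 of 14 and 11 of 12 at Recovery in R1 and R2. These 2 sequences hold 1 CpG each. The FAM174B site, by contrast, was methylated in 21 of 27 reads at Knockdown in Cl.9, against 11 of 29 in R1 and 8 of 28 in R2. The MTARC1 site had 14 of 17, 12 of 30 and 8 of 26, and the ARHGAP32 site 11 of 15, 3 of 19 and 4 of 24. These sequences hold 2, 2 and 4 CpGs. Not every such site followed its promoter. In OR10H4, KRTAP5-2 and DNAI1 the corresponding CpG reached 62.5%, 64.0% and 67.7% at Recovery in Cl.9, and in TUBB6 it had 0 methylated of 24 reads at Knockdown in Cl.9 and 0 of 20 in R1. The ARHGAP32 site stood at 9 of 17 reads in Cl.9 at Recovery, against 14 of 16 and 14 of 14.

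Gene groups were read against all promoters with a Baseline mC of at least 50%, of which 50.1% were at least 20 points lower in Cl.9 than in both bulk populations at Recovery, with a median difference from the bulk mean of -21.4 points. Unless called matched, the promoters of the lists differ at Baseline and Knockdown as well. Few members were matched. Over all matched promoters 64.6% were lower by at least 20 points, with a median of -24.2 points. Among them 27 of 41 olfactory receptors were lower (median -25.9 points), 6 of 8 protocadherins (-30.5), 31 of 40 zinc finger genes (-23.7), 14 of 17 keratin-associated protein genes (-27.0) and 8 of 9 genes silenced in colorectal cancer (-25.4). The same was so for 5 of 7 colon genes (-22.5), 5 of 8 interferon genes (-24.4), 5 of 8 imprinted genes (-24.4) and 3 of 4 HOX genes (-25.8). It was so for 0 of 3 germline genes (-13.0), 0 of 2 genes of the methylation machinery (-17.0) and 0 of 2 ribosomal protein genes (-12.0). Lists were only partly measured, for example 140 of 400 olfactory receptors, 47 of 94 keratin-associated protein genes and 28 of 40 germline genes. Clustered protocadherins, cell adhesion genes of neurons, had 21 of 27 such promoters and a median of -28.1 points. Several of them are neighbours with similar sequence. PCDHGB3 stood at 59.5%, 31.7% and 26.9% in Cl.9, at 72.6%, 38.4% and 73.8% in R1, and at 76.4%, 35.2% and 70.0% in R2, so Cl.9 was lower from the start. PCDHB1 went from 76.8% at Baseline to 41.9% at Recovery in Cl.9, from 85.5% to 82.9% in R1 and from 84.1% to 83.8% in R2. At Knockdown it stood at 35.8% in Cl.9, 49.7% in R1 and 44.7% in R2. PCDHGA12 came closest at Recovery, with 86.3% against 90.4% and 90.8%, but had stood at 71.8% at Knockdown against 56.1% and 62.4%. Olfactory receptors had 45 of 69 and a median of -28.7 points. OR5A1 stood at 88.03%, 26.3% and 25.2% in Cl.9 and at 87.3% and 86.1% at Recovery in the bulk populations. OR1L8 began at 86.9% against 97.4% and 97.9%. It stood at 36.4% against 51.4% and 49.5% at Knockdown and reached 36.2% against 93.3% and 91.5%. OR51B2 stood at 66.1% against 40.4% and 45.2% at Knockdown and reached 81.9% against 88.7% and 85.0%.

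Zinc finger genes of chromosome 19, mostly transcriptional repressors, had 60 of 99 and a median of -23.4 points. Their mean Baseline was already lower in Cl.9, at 74.7% against 80.3% in R1 and 79.6% in R2. ZNF582 began at 66.8% in Cl.9 against 84.2% and 74.4%. It stood at 27.9% against 44.9% and 41.9% at Knockdown and reached 30.3% against 79.7% and 81.7%. ZNF835 began at 64.7% against 81.3% and 83.7%. It stood at 31.1% against 36.3% and 44.8% at Knockdown and reached 34.0% against 83.4% and 80.4%. ZNF468 was as high at Knockdown (57.5%) as at Baseline (56.1%) in Cl.9, while R1 went from 66.1% to 35%. Keratin-associated protein genes had 21 of 35 and a median of -23.5 points. KRTAP10-10 began at 61.2% against 82.9% and 75.2%. It stood at 20.4% against 34.3% and 42.1% at Knockdown and reached 29.5% against 81.5% and 80.8%. KRTAP3-1 stood at 70.9% against 56.1% and 66.1% at Knockdown and reached 81.3% against 86.1% and 86.9%.

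Genes reported as silenced in colorectal cancer had 14 of 22 and a median of -24.6 points. IGFBP7, which binds insulin-like growth factors, stood at 73.8%, 21.6% and 23.6% in Cl.9, at 72.2%, 31.2% and 70.4% in R1, and at 77.7%, 33.8% and 74.1% in R2. SFRP2, a secreted Wnt inhibitor, began at 83.6% against 92.9% and 93.8%. It stood at 43.4% against 61.4% and 61.4% at Knockdown and reached 50.9% against 86.2% and 88.9%. TAC1, a tachykinin gene, began at 84.0% in Cl.9 but 61.5% and 59.7% in the bulk populations and ended at 59.8%, 62.6% and 64.3%. Colon epithelium genes had 8 of 14 and a median of -21.8 points. The 2 lowest of this list were MUC2 and FABP1. MUC2, the main intestinal mucin, reached 62.2% against 91.3% and 95.6%, and FABP1, a fatty acid binding protein of enterocytes, 63.8% against 93.8% and 93.4%.

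Genes of the interferon and double-stranded RNA response, which hypomethylation of repeats can activate, had 9 of 17 and a median of -21.4 points. MX2, an antiviral GTPase gene, reached 39.0% against 72.7% and 74.7%, and OAS2, which senses double-stranded RNA, 53.3% against 86.5% and 84.7%. STING1, an adaptor of cytosolic DNA sensing, began at 94.1% in Cl.9 but at 67.3% and 70.7% in R1 and R2, and ended at 73.9%, 73.3% and 72.6%. Imprinted genes had 7 of 17 and a median of -21.8 points. RTL1 stood at 63.0%, 20.5% and 26.8% in Cl.9 and at 62.6% and 69.4% at Recovery in the bulk populations, and MAGEL2 reached 40.7% against 78.1% and 78.9%. NAP1L5 stood at 39.9% at Knockdown in Cl.9 against 29.1% and 26.8%, and reached 48.3% against 50.9% and 50.3%.

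Germline and cancer-testis genes had 6 of 21 and a median of -13.8 points. HORMAD1, a meiotic gene, stood at 76.8% at Knockdown in Cl.9 against 68.0% and 61.2% and reached 90.6% against 95.3% and 96.6%. MAGEC2 stood at 72.3%, 49.3% and 39.1% in Cl.9 and ended at 73.9% and 73.8% in R1 and R2. DNAJB13 began at 61.7% against 74.6% and 74.9% and reached 33.8% against 73.1% and 73.8%. Their Knockdown mC averaged 62.9% in Cl.9, 52.2% in R1 and 51.5% in R2 over the 21 germline promoters. HOX genes, which pattern the body axis, had 4 of 19 and a median of -12.4 points, with a mean Knockdown mC of 61.3% against 44.4% and 43.5%. HOXB5 reached 44.5% against 91.8% and 86.6%, and HOXC6, from 80.1% against 87.6% and 89.9% at Baseline, reached 42.4% against 87.2% and 86.9%, while HOXD1, with a Baseline of 93.0% in Cl.9 but 68.3% and 69.9% in R1 and R2, ended at 81.0% against 63.4% and 69.3%. Cytosolic ribosomal protein genes had 6 promoters at this Baseline level, of which 2 were lower, with a median of -14.2 points. RPL10L began at 64.5% against 73.6% and 75% and reached 48.4% against 80% and 80.3%, RPL36 74.1% against 97.1% and 96.0%, and RPL39L 86.5% against 93.0% and 91.1%.

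Genes of the DNA methylation machinery had 2 of 6, with a median of -17.0 points. USP7, a deubiquitinase that stabilises UHRF1 and DNMT1, reached 67.6% against 92.8% and 92.5%. NSD1, a histone H3 lysine 36 methyltransferase, stood at 94.7%, 70.3% and 69.8% in Cl.9 and at 91.8% and 90.3% at Recovery in the bulk populations. TET2, an enzyme that oxidises 5-methylcytosine, stood at 51.6% at Knockdown against 25.0% and 31.2% and reached 69.8% against 82.2% and 83.1%. The region upstream of the outermost UHRF1 start stood at 91.6%, 66.8% and 79.9% in Cl.9, at 90.7%, 52.7% and 94.5% in R1, and at 91.7%, 48.9% and 92.3% in R2. That of DNMT1 was lower, at 30.6%, 20.3% and 23.2% in Cl.9, 37.9%, 12.6% and 47.1% in R1, and 30.2%, 18.8% and 39.0% in R2. These values do not check the knockdowns, since an shRNA acts on the mRNA, and transcript and protein levels were not analysed here.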

How the data were processed

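Genomic DNA of HCT116 cells was bisulfite converted and sequenced in 15 libraries, of which the 9 of Cl.9, R1 and R2 were compared. Per the labels, the authors aligned reads with their Meth10X pipeline, on hg38 according to the submitters' processing notes, which also name bedtools 2.25.0. The authors deposited raw counts per CpG and library, methylated and all reads, in 3 tables with 30 columns, all mapped to samples. How duplicates and sequence variants were handled was not given in the sources used here. A C-to-T variant or a copy number change of a clone would change its mC or its coverage. All 29175448 positions on chromosomes 1 to 22 and X were checked against hg38 and fell on the C of a CpG, and other chromosomes were left out. Coverage was 12 to 21 reads per CpG (median), and intervals cover counting error only. For each library the authors provided domain lists as well (HMD, PMD, LMR, UMR). Per the study's methods, PMDs, LMRs and UMRs were called with MethylSeekR. HMDs were the remaining stretches whose average mC reached a set minimum. Lists of Cl.3 and Cl.6 were not used.

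Reads were summed over CpGs with at least 5 reads in all 9 libraries, in 10 kb windows (20 CpGs and 200 reads in each library), promoters (GENCODE release 44, 5 CpGs and 100 reads) and shared Baseline domains. Matches and calls used differences of 5, 10 and 20 points as given beside each result. Wilson intervals (95%) were taken from scipy 1.17.1, with numpy 2.4.6, pandas 2.3.3 and Python 3.11.15. Window calls were tested on simulated counts at the real depths of chromosome 21 (3318 windows), where 100% of windows planted 30 points away and 0% of the unchanged ones were called, at Recovery and at Knockdown, a check of the code and of counting error only. Named promoters were the 10 with the lowest and 5 with the highest Recovery mC in Cl.9 relative to the nearer of R1 and R2 (matched promoters), the 6 highest and 6 lowest at Knockdown by the same measure (matched on Baseline), and in each gene list the 2 lowest and the 1 highest at Recovery against the bulk mean, at a Baseline mC of at least 50%. Overlapping promoters counted once. UHRF1, DNMT1 and the 5 longest runs were added. Of the promoters so named, 2 are not reported here. Members, gene lists and rules were chosen with earlier results of these data known. No test was run, since 1 clone was compared with 2 bulk populations. Alternatives were other read minimums, window sizes, match widths, call limits, weightings, promoter ranges and domain sets, and leaving out R1 or R2.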

Additional observations from a re-analysis of the deposited data

How the results depend on the processing

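The 12 main values were each recomputed under 7 to 12 settings, giving 114 values in all. None (0) of the differences changed sign, which shares cannot do, and 31 values moved by at least 1 standard deviation of the values against R1 alone and R2 alone or, for shares, by more than 1.5 times. Stage changes were taken within each population, and the labels give no pairing between Cl.9 and the bulk populations. One clone and one Recovery time limit what the difference in regain can be tied to. Counting error is small for windows and larger for promoters.

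The Recovery difference over matched windows (-23.4 points) was -24.4 with a match within 2 points, -21.5 within 10 points, and -23.2 to -22.3 against R2 or R1 alone. The difference over matched promoters (-24.4 points) was -24.1 to -23.6 against R2 or R1 alone. The share of matched windows lower in Cl.9 at Recovery (69.3%) was 50.2% with a match within 10 points, and 99.3% and 9.09% at limits of 10 and 30 points. That of matched promoters (64.6%) was 94.7% and 18.9% at those limits. In shared PMDs the difference was -27.2 points with each population's own domains.

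The share of windows higher in Cl.9 at Knockdown (0.0971%) also depended on the settings, and the cause was not tested. It was 0.0570% with 10 reads per CpG, 0.330% in 5 kb and 0.00285% in 50 kb windows, 0.167% with unweighted CpGs, 14.3% and 0% at limits of 10 and 30 points, and 0.163% to 0.252% against 1 bulk population. The share that was lower (0.00130%, 2 windows) was 0.00230% in 5 kb and 0% in 50 kb windows, 0% and 0.0156% with matches within 2 and 10 points, 0.229% and 0% at limits of 10 and 30 points, and 0.00370% to 0.00805% against 1 bulk population.

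The wider density gap of Cl.9 at Knockdown (-6.59 points) was -5.22 with low density from 35 bp and -6.57 to -6.29 against 1 bulk population. At Recovery (-9.98 points) it was -7.00 with 35 bp, -9.75 in 5 kb and -10.4 in 50 kb windows, -9.49 and -10.4 with matches within 2 and 10 points, and -10.3 to -9.998 against 1 bulk population.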
